A study of Mus musculus with 16 samples.

Results

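Integrin and laminin subunits were followed through mouse left ventricles with and without pyruvate kinase M2 (PKM2). The members were all genes whose symbols name an integrin alpha chain, an integrin beta chain or a laminin chain (Itga, Itgb, Lama, Lamb or Lamc followed by its number or letter). This rule took 37 of the 55492 genes in the table, namely 18 integrin alpha chains, 8 integrin beta chains and 11 laminin chains. Of the 26 integrins, 8 that leukocytes use were kept apart from 18 that bind extracellular matrix. All members but Lama1 reached the mean of 10 normalized counts that was needed for a test, so 36 were tested.

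RNA sequencing was performed on 16 left ventricles of male C57BL/6 mice aged 8 to 12 weeks. The controls were PKM2fl/fl mice, which carry loxP sites in the Pkm gene on both alleles and no deletion. The PKM2-/- mice lack PKM2 in the whole body: per the study's methods, PKM2fl/fl mice were crossed with mice carrying a CMV promoter-driven Cre, and the Cre was bred out after germline deletion, so the loss is not limited to any cell type of the heart. Each genotype had 2 untreated hearts (baseline), 3 hearts taken 3 days after sham surgery and 3 hearts taken 3 days after myocardial infarction (MI), made by a permanent tie around the left anterior descending coronary artery. Sham mice went through surgery without the tie. The series asks what PKM2 does in the heart after MI, with sham hearts as the controls of the MI hearts.

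Integrins are receptors made of an alpha and a beta chain that span the cell membrane. They link matrix proteins, or proteins on other cells, to the actin cytoskeleton, and the pair decides the ligand. Leukocyte integrins mostly share the beta chain Itgb2 and bind counter-receptors on endothelium, complement fragments and fibrin. Matrix-binding integrins recognise the RGD tripeptide in fibronectin and vitronectin, collagens or laminins. Laminins are heterotrimers of an alpha, a beta and a gamma chain that form the sheet of the basement membrane around each cardiomyocyte and under vascular endothelium, and laminin in turn binds integrins with Itgb1 and the dystroglycan complex.

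The 16 libraries held 20623769 to 71855101 reads on genes. Reads on CT010467.1, a locus that follows the content of ribosomal RNA, made up 0.256 to 0.494% of a library at baseline, 0.111 to 1.39% after sham and 1.72 to 25.1% after MI in PKM2fl/fl hearts, and 7.63 to 8.25%, 4.14 to 15.01% and 2.13 to 17.4% in PKM2-/- hearts. Counts of Pkm hold both isoforms (7779 to 16113 normalized counts) and so check nothing about the deleted exon. Cardiomyocyte markers (7 genes such as Myh6 and Tnnt2) were high in every heart, as the tissue label says. In the hearts after MI all 7 fell in both genotypes, and their summed level went from 848691 to 928424 normalized counts after sham to 129997 to 335425 after MI in PKM2fl/fl hearts, and from 722797 to 883778 to 151149 to 208909 in PKM2-/- hearts. Macrophage and monocyte markers moved the other way: 7 of 7 rose in both genotypes, with sums of 3633 to 5763 after sham and 12180 to 16673 after MI in PKM2fl/fl hearts, and of 4976 to 5899 and 15761 to 17612 in PKM2-/- hearts. Fewer cells of a type and less RNA per cell cannot be told apart in such bulk samples.

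The remaining marker lists are given by their counts after MI against sham. Of the tested fibroblast markers 3 of 6 rose and 1 fell in both genotypes, of the neutrophil markers 3 of 6 rose in both, and of the platelet markers 3 of 3 rose in both. Of the mural cell markers 3 of 6 fell and 1 rose in PKM2fl/fl hearts and 5 of 6 fell in PKM2-/- hearts. Of the endothelial markers 2 of 6 rose in both genotypes, and 1 fell in PKM2-/- hearts. Of the B cell markers 3 of 5 rose in both genotypes, of the T cell markers 0 of 2 tested passed, and of the 4 tested dendritic cell markers 1 rose and 1 fell in both. Of the epicardial and mesothelial markers 4 of 5 rose in PKM2-/- hearts and none passed in PKM2fl/fl hearts, of the 4 tested Schwann cell markers 1 rose in both genotypes while 3 fell in PKM2fl/fl and 2 in PKM2-/- hearts, and of the atrial markers 1 of 4 rose in both. No adipocyte marker was tested, and Lep was at 0 in 5 of the 6 groups, as was the dendritic marker Cd209a in PKM2-/- hearts at baseline. Beside these counts and those above, 24.8% of all 20576 tested genes rose and 25.3% fell after MI in PKM2fl/fl hearts. In PKM2-/- hearts 28.7% rose and 28.1% fell. The counts of atrial and dendritic markers that rose were near these shares. The part of these cell types in the changes below was not tested.

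Promoter sequence was read for the members that the RefSeq table of GRCm38.p6 (the mm10 assembly, to which the authors aligned their reads) could match, 23 of 37. Windows are the 250 bases before a transcription start, 5′ to 3′ on the gene's strand. Both strands were searched for GAGGAAG, a core that PU.1, a myeloid transcription factor, can bind, and for TGANTCA, an AP-1-like element. Each match is in capitals. The 3 windows below are shown because Itgam and Itgax had the largest increases after MI and Itgb6 the largest genotype difference. For Itgb6 the window with a match is shown.

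Itgam (chr7:128062390-128062639, plus strand): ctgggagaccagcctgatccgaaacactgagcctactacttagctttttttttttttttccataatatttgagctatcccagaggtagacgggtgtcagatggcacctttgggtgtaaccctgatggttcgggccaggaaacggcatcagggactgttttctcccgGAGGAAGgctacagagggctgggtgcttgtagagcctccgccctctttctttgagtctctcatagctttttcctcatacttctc

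Itgax (chr7:128129300-128129549, plus strand): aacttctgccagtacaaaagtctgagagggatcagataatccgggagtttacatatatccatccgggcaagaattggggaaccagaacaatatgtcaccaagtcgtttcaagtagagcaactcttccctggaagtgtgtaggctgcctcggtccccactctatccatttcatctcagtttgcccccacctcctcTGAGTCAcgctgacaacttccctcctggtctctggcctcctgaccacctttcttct

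Itgb6, a start inside the gene (chr2:60673694-60673943, minus strand): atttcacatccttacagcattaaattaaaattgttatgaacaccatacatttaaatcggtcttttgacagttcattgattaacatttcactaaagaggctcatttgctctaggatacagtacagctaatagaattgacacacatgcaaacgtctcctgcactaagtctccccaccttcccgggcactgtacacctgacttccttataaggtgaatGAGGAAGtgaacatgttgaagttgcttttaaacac

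In these windows GAGGAAG lay 84 bases before the start of Itgam and 35 bases before this start of Itgb6, and TGAGTCA lay 56 bases before the start of Itgax. The other Itgb6 window, at the 5′ end of the gene (chr2:60722604-60722853), held neither motif. With the first bases after the start included, GAGGAAG was present in 8 of the 26 windows of members (30.8%), each of another member, and in 13.6% of the 32851 windows of the table. TGANTCA was present in 3 of the 26 (11.5%) and in 7.81% of all windows. The 8 members with GAGGAAG were Itga2b, Itga11, Itgam, Itgav, Itgb6, Itgb7, Lama2 and Lamb3. Of these Itga11, Itgam, Itgav and Itgb7 rose after MI in both genotypes, Itgb6, Lama2 and Lamb3 fell, and Itga2b was called in neither. The 3 with TGANTCA were Itga3, Itga9 and Itgax. A match describes these letters and is no evidence of binding. In the genome Itgam, Itgax and Itgad follow each other on chromosome 7 (128062640 to 128118491, 128129526 to 128150657 and 128173933 to 128205504), with Itgal on the same chromosome (127296139 to 127335137).

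To compare subunits with each other, normalized counts were divided by the length of annotated exon. Itgb1, the beta chain that pairs with most matrix-binding alpha chains, had the highest level of any integrin in PKM2fl/fl sham hearts whose reads are its own, at 1426 ± 88.7 per kb (SD, n = 3). The laminin chains Lamb2 (985 ± 55.4), Lama2 (569 ± 73.5) and Lamc1 (529 ± 21.4) followed, and the levels of Lama2 and Lamc1 differed by less than the SD of Lama2. Lama5 (362 ± 32.7), Itga9 (337 ± 36.7) and Itgb5 (335 ± 26.9) came next and lay within their spread of each other. Itga7, the laminin-binding alpha chain of muscle, stood at 284 ± 20.2 per kb and Itga5, the alpha chain of the fibronectin receptor, at 211 ± 3.12 per kb. At the low end, Itgae (6.31 ± 2.24 per kb), Itgax (6.25 ± 2.27) and Itga2b (6.04 ± 2.42) could not be told apart, and Lamc3 (2.06 ± 1.29) was the lowest member tested. Among integrins after MI, again leaving Itgad aside, Itgb1 had the highest mean with 2241 ± 103 per kb in PKM2fl/fl and 2477 ± 183 in PKM2-/- hearts, and Itga5 the next with 830 ± 191 and 1069 ± 86.9 per kb.

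Lama1, the laminin alpha chain of embryonic basement membranes, had 0 to 12 reads per library. It was at 0 in both PKM2-/- hearts at baseline, and a count of 0 allows up to 3 reads, so its level was not measurable at this depth.

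Some members overlap other genes, the library kit does not mark strand, and how the counting treated overlaps is not given in the sources used here. Itgad is the clearest case: Cox6a2, a heart and muscle subunit of cytochrome c oxidase, lies inside it on the opposite strand, and the reads counted for Cox6a2 made up 98.5 to 99.7% of those counted for Itgad. Only 17 to 181 reads per library remained for Itgad. Reads of Haspin made up 0 to 66.7% of the Itgae count, and reads of G0s2 and Hsd11b1 58.1 to 76.7% of the Lamb3 count. Values of Itgad, Itgae and Lamb3 are therefore also given without those reads. Among other members, Itgam, Itgav, Itga1, Itga2, Itga4, Itga8, Itga9, Itga10, Itgb4, Lamb1, Lama5 and Lamc3 overlap other annotated genes as well. They carry the same doubt to an extent that the table does not settle. Reads of Gm13684, which lies inside Itgav on the opposite strand, equalled 9.37 to 13.8% of the Itgav count.

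MI changed most of the family in both genotypes. In PKM2fl/fl hearts 21 of the 36 tested members rose and 7 fell after MI against sham, where 24.8% of all 20576 tested genes rose and 25.3% fell (limma on log2(normalized count + 1), Benjamini-Hochberg adjusted p under 0.05 over all tested genes). In PKM2-/- hearts 20 rose and 10 fell, beside 28.7% and 28.1% of all genes. The median log2 fold change of the members was 0.59 in PKM2fl/fl and 0.76 in PKM2-/- hearts, and that of all genes was -0.0025 and 0.01. MI and sham libraries did not overlap for 26 members in PKM2fl/fl hearts (59% of all genes) and for 30 members in PKM2-/- hearts (62.3% of all genes). With a 2-fold change asked for as well, 17 members were called in PKM2fl/fl hearts (23.5% of all genes) and 20 in PKM2-/- hearts (28.8% of all genes). The 2 comparisons share no library, but both use the same estimate of the spread, taken over all 16 libraries. Scaled by total count instead, where the median of all genes was -0.17 in PKM2fl/fl and 0.52 in PKM2-/- hearts, 14 members rose and 6 fell in PKM2fl/fl hearts and 22 rose and 4 fell in PKM2-/- hearts. The calls lost were those of Itga3, Itga9, Itgb1, Itgb5, Lama2, Lama4, Lamb1 and Lamc1 in PKM2fl/fl hearts and of Itga7, Itga8, Itga10, Lama2, Lama3 and Lama5 in PKM2-/- hearts. With CT010467.1 as a covariate the calls of Itga3, Itga8, Itga9, Lama2 and Lama5 in PKM2fl/fl hearts were lost, and 6014 genes of the whole table were called there, against 10299.

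The medians of integrins and laminins had opposite signs. Of the 26 integrins 18 rose and 3 fell in PKM2fl/fl hearts (median log2 fold change 1.24), and 17 rose and 5 fell in PKM2-/- hearts (1.14). Of the 10 tested laminin chains 3 rose and 4 fell in PKM2fl/fl hearts (median -0.26), and 3 rose and 5 fell in PKM2-/- hearts (-0.45). Beside these counts, and those of the smaller groups below, 24.8% of all tested genes rose and 25.3% fell in PKM2fl/fl hearts. In PKM2-/- hearts the shares were 28.7% and 28.1%. The count of laminin chains that rose was near these shares. All fold changes here and below are on the log2(normalized count + 1) scale, which understates the change of low genes.

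**Figure D1:**
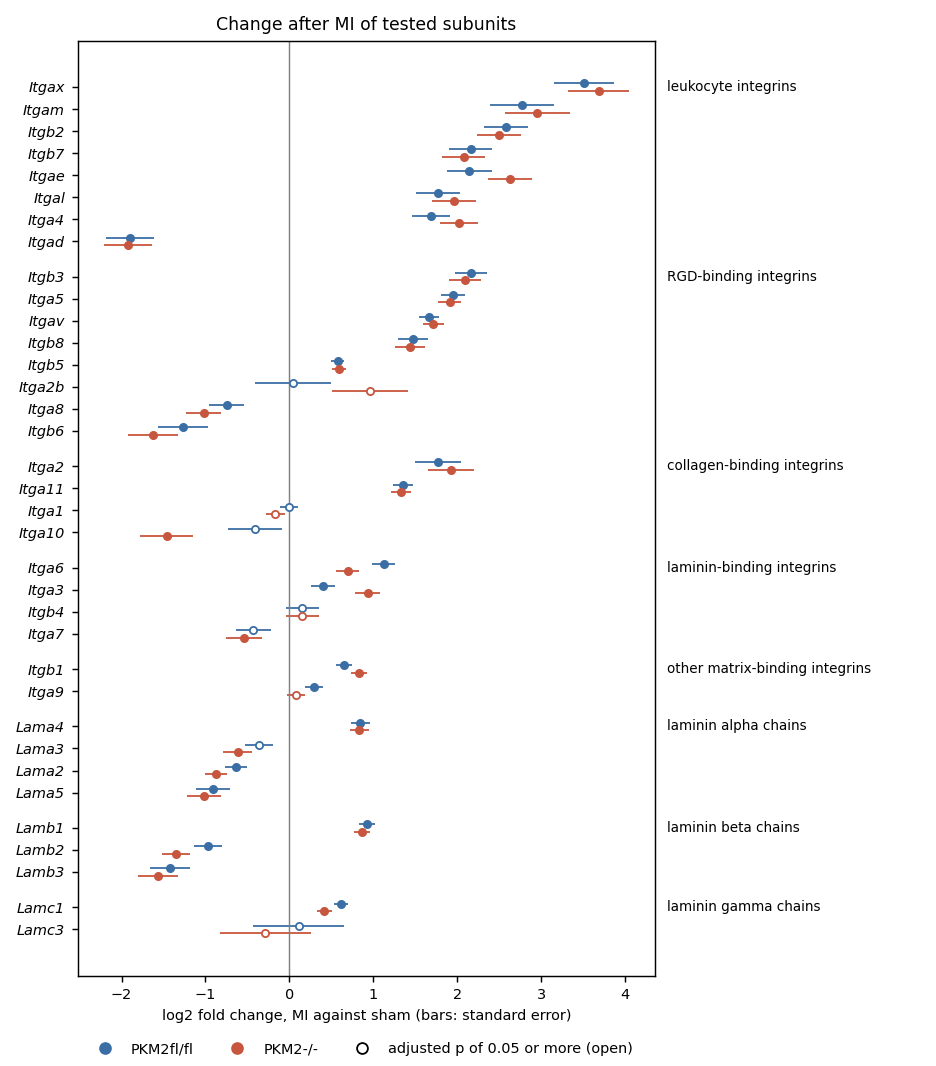
Log2 fold change after MI against sham for the tested subunits described here, by role, in PKM2fl/fl (blue) and PKM2-/- (red) hearts. Horizontal bars are standard errors, and filled points have an adjusted p under 0.05. The leukocyte integrins other than Itgad lie far to the right, from 1.69 for Itga4 in PKM2fl/fl to 3.68 for Itgax in PKM2-/- hearts, while the laminin chains lie on both sides of 0.

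Leukocyte integrins had the highest median of the groups. Of the 8 members 7 rose and 1, Itgad, fell in each genotype, with a median log2 fold change of 2.15 in PKM2fl/fl and 2.29 in PKM2-/- hearts. The macrophage and monocyte marker sums given above moved with them. Dendritic sums fell, from 1623 to 1794 after sham to 1248 to 1523 after MI in PKM2fl/fl hearts. In PKM2-/- hearts they were 1867 to 2263 and 956 to 1160. T cell sums were 31.1 to 63.6 and 69.7 to 73.2 in PKM2fl/fl, and 27.3 to 61.4 and 42.2 to 63.5 in PKM2-/- hearts. B cell sums were 64.6 to 103 and 138 to 169, and 43.1 to 75.6 and 122 to 214.

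Itgb2 is the beta chain that the myeloid and lymphoid alpha chains share. Its normalized counts were 304, 419.8 and 226 after sham and 1719, 1242 and 2918 after MI in PKM2fl/fl hearts. Those of PKM2-/- hearts were 469, 421 and 338 after sham and 2586, 1959 and 2385 after MI. Every MI heart was above every sham heart of its genotype, with log2 fold changes of 2.58 (SE 0.26, adjusted p = 2.2e-06) and 2.50 (SE 0.26, adjusted p = 1.85e-06), which are 5.99-fold and 5.65-fold.

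Itgam, the alpha chain of the complement receptor of neutrophils, monocytes and macrophages, was at 424, 731 and 251 normalized counts after sham and 2449, 1621 and 6236 after MI in PKM2fl/fl hearts. The levels of PKM2-/- hearts were 521, 559 and 504 after sham and 4342, 3769 and 4176 after MI. The third PKM2fl/fl MI heart was far above the other two, and the 3 PKM2-/- MI hearts lay close together. Itgam rose by a log2 fold change of 2.77 (SE 0.39, adjusted p = 3.37e-05) in PKM2fl/fl and 2.95 (SE 0.39, adjusted p = 1.24e-05) in PKM2-/- hearts.

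Itgax, an alpha chain of dendritic cells and some macrophages, showed the largest change of the family. It stood at 36.4, 37.0 and 17.6 normalized counts after sham and 331, 287 and 407 after MI in PKM2fl/fl hearts, and at 37.0, 30.0 and 18.3 and 412, 399 and 291 in PKM2-/- hearts. The change was 11.4-fold in PKM2fl/fl (log2 fold change 3.51 (SE 0.36, adjusted p = 2.38e-06)) and 12.8-fold in PKM2-/- hearts (3.68 (SE 0.36, adjusted p = 1.01e-06)). Itgal, the alpha chain of the lymphocyte integrin that binds Icam1, had smaller changes. Its normalized counts went from 64.6, 99.6 and 50.5 to 266, 195 and 254 in PKM2fl/fl hearts and from 96.5, 127 and 60.4 to 379, 336 and 348 in PKM2-/- hearts, with log2 fold changes of 1.77 (SE 0.26) and 1.96 (SE 0.26). Per kb of exon, the ratio of Itgam to Itgal was 6.39 to 9.44 after sham and 10.7 to 31.5 after MI in PKM2fl/fl hearts, and 5.67 to 10.7 and 14.4 to 15.4 in PKM2-/- hearts. The MI and sham hearts of a genotype did not overlap in this ratio.

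Itga4 and Itgb7 form a pair on lymphocytes, and Itga4 with Itgb1 binds Vcam1. Itga4 stood at 305, 403 and 263 normalized counts after sham and 736, 1015 and 1449 after MI in PKM2fl/fl hearts, and at 341, 287 and 242 and 916, 1286 and 1346 in PKM2-/- hearts. It rose by log2 fold changes of 1.69 (SE 0.23) and 2.02 (SE 0.23). Itgb7 was at 27.0, 39.0 and 31.9 after sham and 122, 119 and 220.4 after MI in PKM2fl/fl hearts, and at 35.4, 45.7 and 34.5 and 182, 160.0 and 153 in PKM2-/- hearts, with log2 fold changes of 2.16 and 2.08. MI hearts did not overlap with sham hearts for either gene.

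Itgae, the alpha chain that pairs with Itgb7 on lymphocytes of epithelia, was at 31.1, 55.4 and 31.4 normalized counts after sham and 175, 158 and 180.2 after MI in PKM2fl/fl hearts. Its levels in PKM2-/- hearts were 28.9, 27.4 and 23.7 and 148, 192 and 170.2. The log2 fold change was 2.14 (SE 0.27, adjusted p = 1.23e-05) in PKM2fl/fl and 2.63 (SE 0.27, adjusted p = 1.33e-06) in PKM2-/- hearts, and with the reads of Haspin removed it was 1.80 and 2.64. Itgad, an alpha chain of macrophages, was at 21199, 21657 and 19236 after sham and 7675, 7805 and 2861 after MI in PKM2fl/fl hearts, and at 14195, 13379.7 and 21009 and 4707, 4180.2 and 3718 in PKM2-/- hearts. These counts were nearly all reads of Cox6a2, and their log2 fold changes were -1.90 and -1.92. The remainder fell from 85.2 ± 22.0 to 44.0 ± 1.65 normalized counts (SD, n = 3) in PKM2fl/fl and from 81.5 ± 31.2 to 29.1 ± 15.4 in PKM2-/- hearts, with log2 fold changes of -0.91 (SE 0.35, adjusted p = 0.0402) and -1.51 (SE 0.35, adjusted p = 0.00166). Whether these remaining reads come from Itgad itself was not tested.

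**Figure D2:**
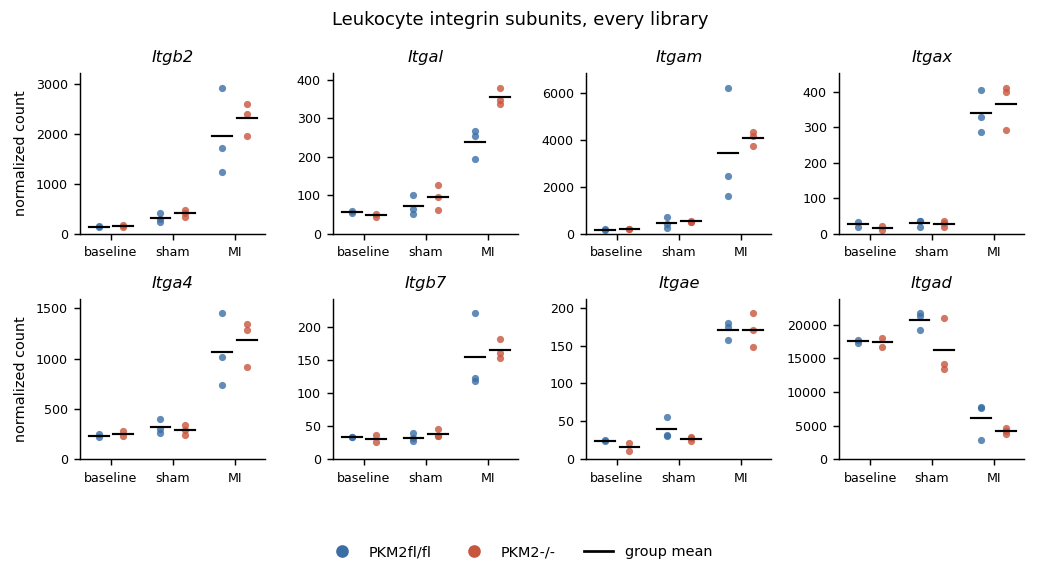
Normalized counts of the 8 leukocyte integrins (vertical axis, linear, from 0) in each of the 16 libraries at baseline, after sham and after MI. Points are libraries, and horizontal lines are group means. Of the 8 only Itgad, whose count is mostly Cox6a2 reads, was lower in the MI hearts, and the third PKM2fl/fl MI heart stands highest for Itgam at 6236.

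The 18 matrix-binding integrins were divided after MI. In PKM2fl/fl hearts 11 rose and 2 fell (median log2 fold change 0.49), and in PKM2-/- hearts 10 rose and 4 fell (0.76). Among the 8 that recognise RGD, 5 rose and 2 fell in each genotype.

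Itga5, whose pair with Itgb1 is the main fibronectin receptor, rose in both genotypes. Its normalized counts were 1139, 1106 and 1119.7 after sham and 5021, 3243 and 4982 after MI in PKM2fl/fl hearts, and 1530.5, 1622 and 1392 after sham and 6224, 5463 and 5388 after MI in PKM2-/- hearts. The log2 fold changes were 1.95 (SE 0.14, adjusted p = 9.89e-08) and 1.91 (SE 0.14, adjusted p = 8.54e-08), that is 3.86-fold and 3.76-fold. Itgav, the alpha chain of the vitronectin receptors, went from 1107, 1213 and 1121 to 3274, 3100.2 and 4689.8 in PKM2fl/fl hearts and from 1189.7, 1215 and 1128 to 3709, 4039 and 3859 in PKM2-/- hearts. It rose 3.16-fold and 3.28-fold, with log2 fold changes of 1.66 (SE 0.12) and 1.72 (SE 0.12).

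Of Itgb3, Itgb5, Itgb6 and Itgb8, which pair with Itgav as Itgb1 does, 3 rose and 1 fell. Itgb3, also the beta chain of the platelet fibrinogen receptor, was at 177, 178 and 178 normalized counts after sham and 861, 623 and 948 after MI in PKM2fl/fl hearts. In PKM2-/- hearts it was at 272, 347 and 218 and 1089.5, 1143 and 1284, and the log2 fold changes were 2.16 (SE 0.19, adjusted p = 5.24e-07) and 2.09 (SE 0.19, adjusted p = 4.86e-07). Itgb8, which binds latent TGF-beta, went from 157, 192 and 121 to 374, 417 and 504 in PKM2fl/fl hearts and from 175, 182 and 163 to 426, 477 and 509 in PKM2-/- hearts (log2 fold changes of 1.47 and 1.44). Itgb5, the abundant partner of Itgav in resting tissue, rose least, from 2549, 2379 and 2171 to 3501, 3495 and 3538 in PKM2fl/fl hearts and from 2223, 2302 and 2122 to 3106, 3389 and 3487 in PKM2-/- hearts (log2 fold changes of 0.57 and 0.59). Per kb of exon the ratio of Itgb3 to Itgb5 was 0.0743 to 0.0877 after sham and 0.19 to 0.286 after MI in PKM2fl/fl hearts, and 0.11 to 0.161 and 0.36 to 0.393 in PKM2-/- hearts.

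Itgb6, a beta chain known from injured epithelium that activates latent TGF-beta, went the other way. It was at 909, 1271 and 1433 normalized counts after sham and 510.1, 720.1 and 319 after MI in PKM2fl/fl hearts, and at 577, 498 and 759 and 120.0, 248 and 247 in PKM2-/- hearts. It fell by 1.27 on the log2 scale in PKM2fl/fl (SE 0.30, adjusted p = 0.00225) and by 1.62 in PKM2-/- hearts (SE 0.30, adjusted p = 0.000251). No MI heart reached a sham heart of its genotype.

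Itga8, a receptor chain of mesenchymal cells and smooth muscle, was at 189.8, 227 and 282 normalized counts after sham and 121, 198 and 106 after MI in PKM2fl/fl hearts, where the groups overlapped. In PKM2-/- hearts it was at 246, 218 and 276 and 122, 108 and 133, with no overlap. Its log2 fold changes were -0.75 (SE 0.21, adjusted p = 0.00678) and -1.02 (SE 0.21, adjusted p = 0.000571). Itga2b, the platelet alpha chain, was low and not called: it had 68.0, 27.9 and 58.5 normalized counts in PKM2fl/fl and 122, 106 and 77.9 in PKM2-/- MI hearts, with log2 fold changes against sham of 0.05 (SE 0.45, adjusted p = 0.941) and 0.96 (SE 0.45, adjusted p = 0.0829). Itga2b was called higher after MI in PKM2-/- hearts by edgeR without a filter, under total count scaling, with only the compared groups and without PKM2-/- sham replicate 1. Beside it, the summed platelet markers were 198 to 305 after sham and 1106 to 1636 after MI in PKM2fl/fl hearts, and 260 to 347 and 1945 to 3175 in PKM2-/- hearts.

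Of the 4 collagen-binding alpha chains 2 rose in both genotypes. Itga11, a collagen receptor of fibroblasts, went from 157, 156 and 136 normalized counts to 394, 406 and 350.3 in PKM2fl/fl hearts and from 148, 141 and 166 to 370.5, 390.0 and 384 in PKM2-/- hearts. These were log2 fold changes of 1.35 (SE 0.12, adjusted p = 6.11e-07) and 1.33 (SE 0.12, adjusted p = 4.9e-07). Itga11 lies on chromosome 9, 3.0 Mb from Pkm, the deleted gene. Itga2, known from platelets and epithelium, rose by 1.77 (SE 0.27) and 1.93 (SE 0.27) on the log2 scale, to 249, 260.4 and 294 normalized counts in PKM2fl/fl and 328, 319 and 323 in PKM2-/- MI hearts.

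Itga1, the most abundant of the 4 and a receptor of basement membrane collagen, did not pass the test in either genotype. Its log2 fold change lay between -0.24 to 0.22 in PKM2fl/fl and -0.40 to 0.06 in PKM2-/- hearts (95% intervals). The ratio of Itga11 to Itga1 per kb was 0.122 to 0.167 after sham and 0.364 to 0.42 after MI in PKM2fl/fl hearts, and 0.142 to 0.177 and 0.43 to 0.492 in PKM2-/- hearts. Itga10, a collagen receptor of cartilage, had 75.6, 74.4 and 88.5 normalized counts after sham and 22.7, 48.3 and 20.2 after MI in PKM2-/- hearts and fell there (-1.46 (SE 0.32, adjusted p = 0.00108)). In PKM2fl/fl hearts its counts of 80.5, 65.7 and 57.8 and 37.1, 67.5 and 51.2 overlapped (-0.41 (SE 0.32, adjusted p = 0.302)).

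Laminin-binding integrins moved in both directions. Itga6, the laminin receptor chain of endothelium and epithelium, was at 1312, 1666 and 1949 normalized counts after sham and 3334, 3298 and 3981 after MI in PKM2fl/fl hearts, and at 2215, 2494 and 1850.1 and 3674, 3422 and 3451 in PKM2-/- hearts. It rose by log2 fold changes of 1.12 (SE 0.14, adjusted p = 1.11e-05) and 0.69 (SE 0.14, adjusted p = 0.000488). Itga3, which binds the laminins of epithelia and vessels, rose as well, from 283, 324 and 360.3 to 510.1, 355 and 422 in PKM2fl/fl hearts with overlapping libraries, and from 397, 376 and 359 to 728, 655 and 780.5 in PKM2-/- hearts with none. The log2 fold changes were 0.40 (SE 0.15, adjusted p = 0.0332) and 0.93 (SE 0.15, adjusted p = 6.87e-05).

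Itga7, the partner of Itgb1 on cardiomyocytes, had normalized counts of 2264, 2255 and 2549 after sham and 2348, 1918 and 1179.8 after MI in PKM2fl/fl hearts (log2 fold change -0.43 (SE 0.21, adjusted p = 0.103), not called). In PKM2-/- hearts it fell, from 1971, 2830.0 and 2048 to 1985, 1351 and 1383 with overlapping libraries (-0.54 (SE 0.21, adjusted p = 0.0394)), a call that was lost without PKM2-/- sham replicate 2 and without PKM2-/- MI replicate 2 or 3, with no filter on low values and under total count scaling (adjusted p of up to 0.951 over all alternatives). The cardiomyocyte marker sums in the same hearts had fallen, as given above. Itgb4, the beta chain of hemidesmosomes, did not pass the test in either genotype (0.15 and 0.15). The ratio of Itga5 to Itga7 per kb was 0.684 to 0.783 after sham and 2.63 to 6.58 after MI in PKM2fl/fl hearts, and 0.893 to 1.21 and 4.88 to 6.30 in PKM2-/- hearts, so Itga7 was the higher of the pair in every PKM2fl/fl sham heart and the lower in every MI heart.

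Itgb1 itself rose in both genotypes, from 8902, 8725 and 7909 normalized counts to 12901, 13163 and 14078 in PKM2fl/fl hearts and from 8271, 8779 and 7979 to 16020.1, 14382 and 13956 in PKM2-/- hearts. Its log2 fold changes were 0.65 (SE 0.10, adjusted p = 5.66e-05) and 0.82 (SE 0.10, adjusted p = 4.83e-06). Itga9, which binds tenascin and osteopontin, rose by 0.29 in PKM2fl/fl hearts (adjusted p = 0.0364) and did not pass the test in PKM2-/- hearts (0.08, adjusted p = 0.557). In PKM2fl/fl hearts the call of Itga9 was lost in 11 of 27 alternative analyses and that of Itga3 in 8 of 27, among them each of those without PKM2fl/fl sham replicate 1 or 2 or PKM2fl/fl MI replicate 1, while without PKM2fl/fl MI replicate 3 only Itga3 lost its call.

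**Figure D3:**
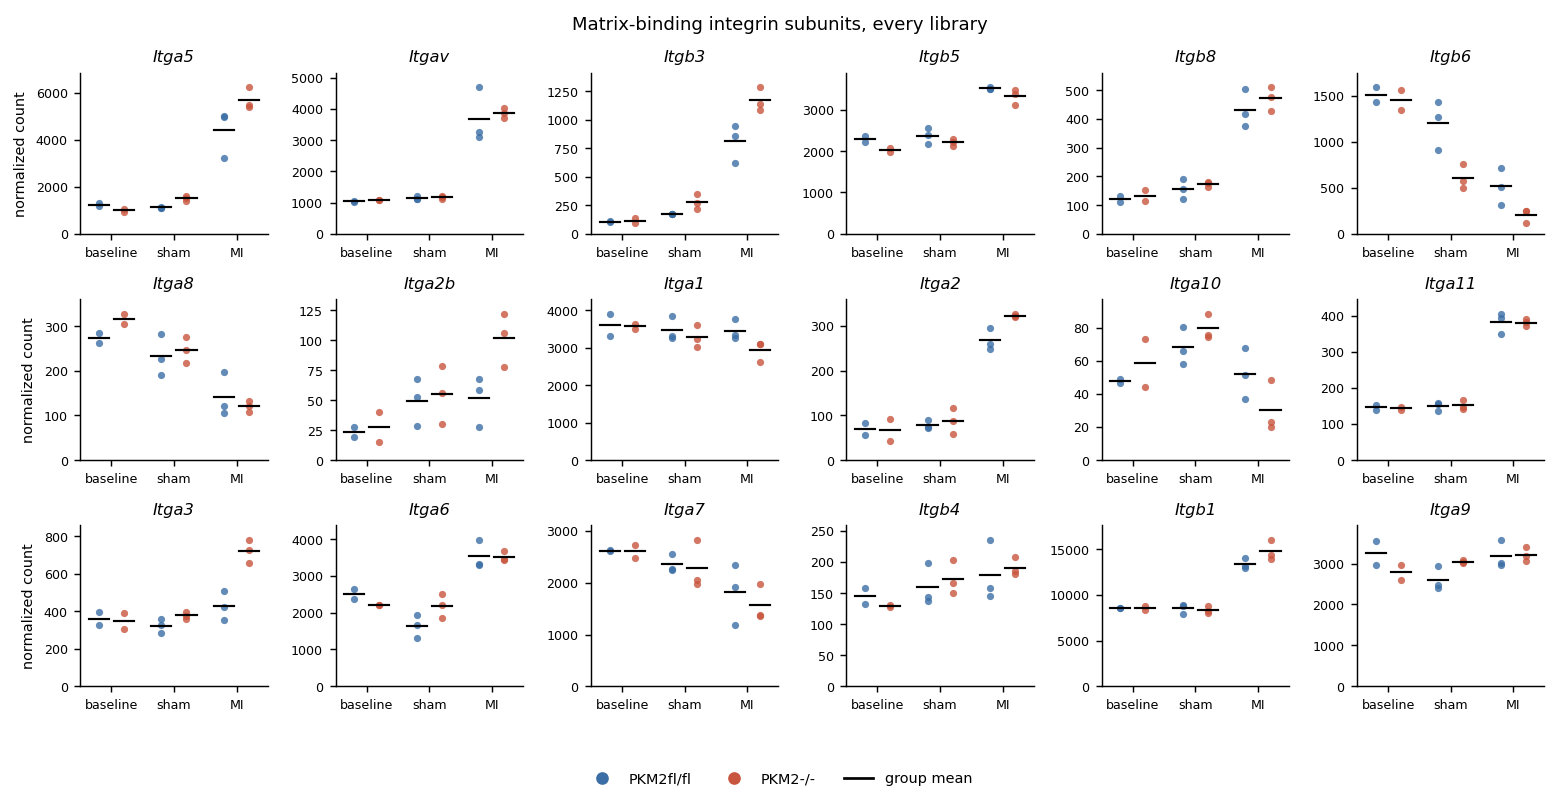
Normalized counts of the 18 matrix-binding integrins (vertical axes, linear, from 0) in each library at baseline, after sham and after MI, with group means as horizontal lines. Itga5, Itgav, Itgb3 and Itga11 are higher in every MI heart than in any sham heart of the same genotype, and Itgb6 is lower in every MI heart.

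The laminin chains were divided too. Among the alpha chains, Lama4, the chain of endothelial and muscle basement membranes, rose and the other tested chains fell or did not pass the test. Lama4 was at 3075, 3407 and 3455 normalized counts after sham and 6346, 5660.3 and 5823 after MI in PKM2fl/fl hearts, and at 3484, 2686 and 3649 and 5661, 5873 and 5795 in PKM2-/- hearts. Its log2 fold changes were 0.84 (SE 0.11, adjusted p = 1.93e-05) and 0.83 (SE 0.11, adjusted p = 1.41e-05).

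Lama2, the alpha chain of the laminin around muscle fibres, went from 9442, 9323 and 11649 normalized counts to 6026, 7571 and 6007 in PKM2fl/fl hearts and from 8628, 9837 and 9159 to 5720.0, 5001 and 4419 in PKM2-/- hearts. It fell by 0.63 (SE 0.13) and by 0.87 (SE 0.13) on the log2 scale, and by 0.46 (adjusted p = 0.0603) in PKM2fl/fl hearts with CT010467.1 as a covariate and 0.36 (adjusted p = 0.382) in PKM2-/- hearts under total count scaling, neither of which passed. Lama5, the other vascular alpha chain, fell by 0.91 (SE 0.20) in PKM2fl/fl hearts, to 2645, 2550.5 and 1580.4 normalized counts, and by 1.02 (SE 0.20) in PKM2-/- hearts, to 2127, 1882 and 1992. Lama3, an epithelial chain, fell in PKM2-/- hearts (-0.62 (SE 0.17, adjusted p = 0.00639)) and missed the threshold in PKM2fl/fl hearts (-0.36 (SE 0.17, adjusted p = 0.0916)), where the libraries overlapped.

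The beta chains split in the same way. Lamb1, the beta chain of most vascular and interstitial laminins, rose from 2325, 2763 and 2629 normalized counts to 4886, 4608 and 5151 in PKM2fl/fl hearts and from 2948, 2522 and 2977 to 5325, 5071 and 4945 in PKM2-/- hearts. The log2 fold changes were 0.93 (SE 0.10, adjusted p = 2.98e-06) and 0.86 (SE 0.10, adjusted p = 3.36e-06). Lamb2, known from vessel walls, the glomerulus and the neuromuscular synapse, went from 5959, 5676 and 6349 to 3479.6, 3749 and 2181 in PKM2fl/fl hearts and from 5702, 6835 and 5701 to 2696, 2229.8 and 2213 in PKM2-/- hearts. It fell by 0.97 (SE 0.17, adjusted p = 0.000193) and by 1.35 (SE 0.17, adjusted p = 7.09e-06) on the log2 scale.

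Lamb3, an epithelial beta chain, fell by 1.43 and 1.57 as counted, and by 1.52 and 1.71 with the reads of G0s2 and Hsd11b1 removed. The remainder was 358 ± 12.1 normalized counts after sham and 131 ± 49.2 after MI (SD, n = 3) in PKM2fl/fl hearts, and 349 ± 59.4 and 107 ± 20.3 in PKM2-/- hearts.

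Lamc1, the gamma chain of nearly all heart laminin, rose from 5828, 5877 and 6270.4 normalized counts to 9576, 8884 and 8993 in PKM2fl/fl hearts and from 6966, 7146 and 7085 to 9734, 9537 and 9005 in PKM2-/- hearts. The log2 fold changes were 0.61 (SE 0.09, adjusted p = 3.81e-05) and 0.41 (SE 0.09, adjusted p = 0.000764). Lamc3, a low chain with at most 43.4 normalized counts in any heart, did not pass the test in either genotype and changed by 0.11 and -0.29.

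**Figure D4:**
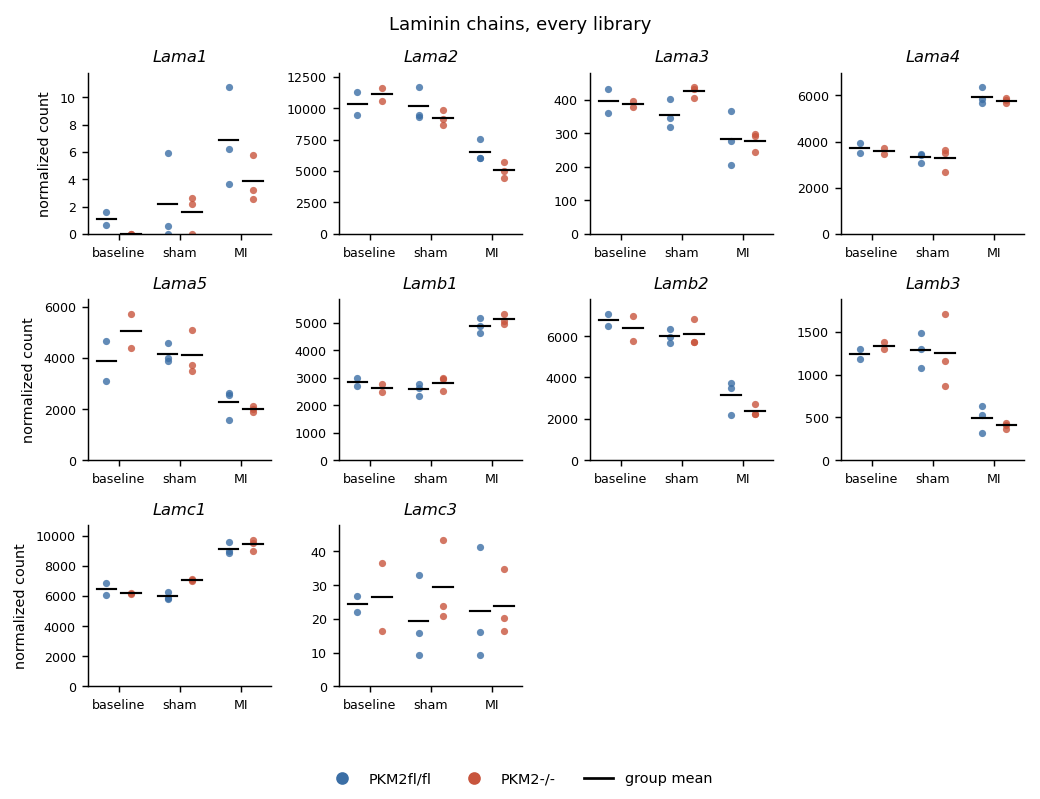
Normalized counts of the laminin chains described here (vertical axes, linear, from 0) in each library at baseline, after sham and after MI, with group means as horizontal lines. Lama4, Lamb1 and Lamc1 are higher in every MI heart than in any sham heart of the same genotype, and Lama2, Lama5, Lamb2 and Lamb3 are lower. Lama1 stays near 0 throughout.

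Expressed as shares of the summed level per kb of exon, the chain composition shifted between sham and MI. Lamb1 made up 17.4% ± 1.39 (SD, n = 3) of the beta chains after sham and 44.9% ± 8.63 after MI in PKM2fl/fl hearts, and 18.6% ± 2.26 and 52.1% ± 1.73 in PKM2-/- hearts. The share of Lamb2 was 71.3% ± 2.88 after sham and 49.4% ± 7.60 after MI in PKM2fl/fl hearts, and 70.6% ± 5.59 and 42.5% ± 1.90 in PKM2-/- hearts. The ratio of Lamb1 to Lamb2 per kb was 0.222 to 0.276 after sham and 0.698 to 1.34 after MI in PKM2fl/fl hearts, and 0.209 to 0.296 and 1.12 to 1.29 in PKM2-/- hearts. Lamb1 thus passed Lamb2 in all 3 PKM2-/- MI hearts and in 1 of the 3 PKM2fl/fl MI hearts, replicate 3. The beta chain total includes the Lamb3 count with the reads of G0s2 and Hsd11b1. These shares were compared by their spread only.

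Among the alpha chains Lama4 made up 18.1% ± 1.42 after sham and 39.4% ± 4.25 after MI in PKM2fl/fl hearts, and 18.8% ± 3.98 and 43.5% ± 2.64 in PKM2-/- hearts. Lama2 went from 48.5% ± 3.18 to 38.0% ± 3.61 in PKM2fl/fl and from 46.3% ± 0.315 to 33.3% ± 2.73 in PKM2-/- hearts, and Lama5 from 31.1% ± 3.43 to 20.2% ± 3.76 and from 31.9% ± 4.38 to 20.6% ± 1.00. Baseline hearts had shares close to sham, with Lamb1 at 17.3% ± 0.30 (SD, n = 2) and Lama4 at 20.0% ± 1.83 in PKM2fl/fl hearts.

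**Figure D5:**
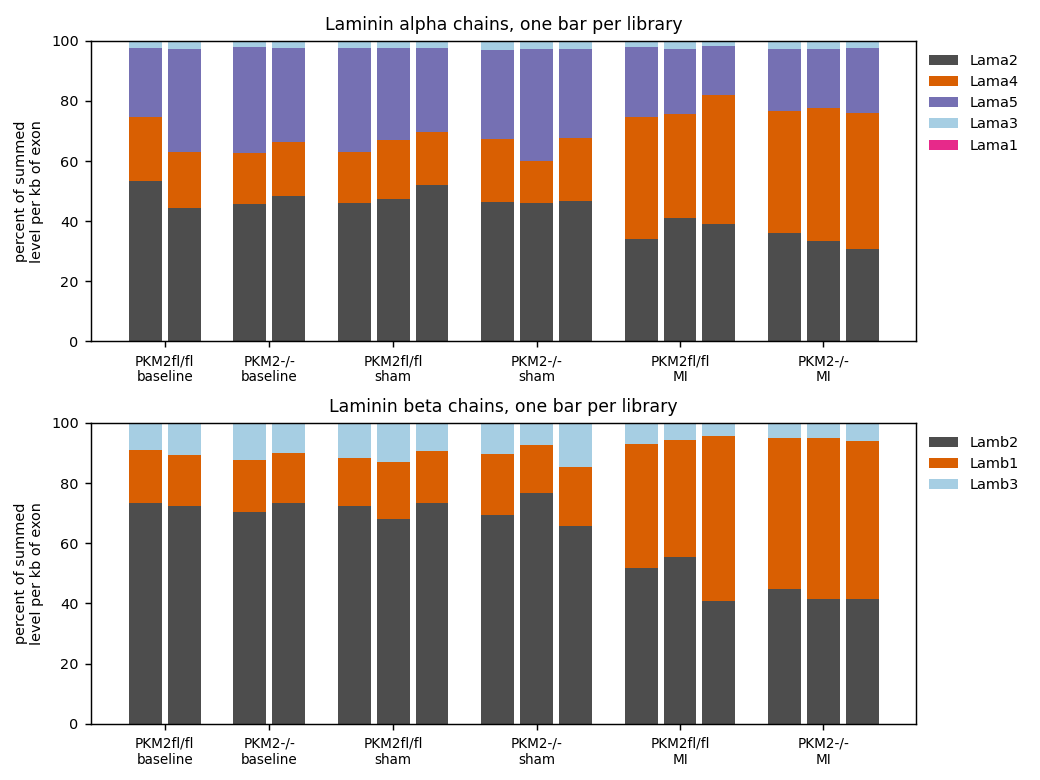
Laminin chain composition of each library: stacked bars give each chain's percent of the summed level per kb of exon, for the alpha chains (top) and the beta chains (bottom), with libraries ordered by group. Lamb1 takes 38.7 to 54.8% of the beta chains in the PKM2fl/fl MI hearts and 50.2 to 53.5% in the PKM2-/- MI hearts, against at most 20.3% in any sham heart.

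Genes that work with the family were taken from 4 lists. Beside their counts, 24.8% of all tested genes rose and 25.3% fell in PKM2fl/fl hearts, and 28.7% and 28.1% in PKM2-/- hearts. Of 27 tested integrin adaptors and kinases 16 rose and 6 fell in PKM2fl/fl hearts (median log2 fold change 0.49), and 16 rose and 8 fell in PKM2-/- hearts (0.42). The 4 with the smallest p in PKM2fl/fl hearts were Actn1, which crosslinks actin (log2 fold changes of 1.77 in PKM2fl/fl and 1.74 in PKM2-/- hearts), Flna, which binds integrin tails (1.74 and 1.73), Tns3, a tensin (1.50 and 1.67), and the kinase Ptk2b (2.22 and 2.19). All 4 rose.

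Of 16 tested integrin ligands 11 rose and 1 fell in PKM2fl/fl hearts (median 1.72), and 12 rose and 2 fell in PKM2-/- hearts (1.81). Fn1, the fibronectin that Itga5 binds, had 2777 ± 1212 normalized counts after sham (SD, n = 3) and 45958 ± 15991 after MI in PKM2fl/fl hearts, and 2697 ± 792 and 39451 ± 3973 in PKM2-/- hearts. Its log2 fold changes were 4.08 and 3.90. Postn, a matricellular ligand of Itgav, rose by 3.82 and 3.59, Ccn2 by 2.42 and 2.16 and Emilin1, a ligand of Itga9, by 1.98 and 2.22.

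Of the 14 basement membrane partners of laminins 8 rose and 2 fell in PKM2fl/fl hearts (median 0.76), and 9 rose and 4 fell in PKM2-/- hearts (0.73). Col18a1 (2.74 and 2.72), Col15a1 (2.16 and 1.87), the collagen-binding protein Sparc (2.10 and 2.07) and Nid2, which ties laminin to collagen (1.50 and 1.59), rose in both genotypes. Of the 14 other laminin receptors 5 rose and 7 fell in PKM2fl/fl hearts (median -0.47), and 4 rose and 8 fell in PKM2-/- hearts (-0.70). Here the syndecans Sdc1 (2.32 and 2.88) and Sdc3 (1.36 and 1.06) rose, while the sarcoglycans Sgcb (-0.94 and -1.11) and Sgcd (-0.91 and -1.36) of the cardiomyocyte membrane fell.

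Genotype was compared at each condition. At baseline none of the 36 members differed between PKM2-/- and PKM2fl/fl hearts, where 0.00972% of all genes did. With limma 0 members had an unadjusted p under 0.05 (3.64% of all genes), and edgeR and DESeq2 on the recovered reads called 0 as well. After sham none differed again (0.00972% of all genes), and 6 members had an unadjusted p under 0.05 (9.95% of all genes). edgeR and DESeq2 on the recovered reads called 0, but edgeR without a filter on low counts called 2, Itgb3 and Itgb6. The members with the smallest p were Itgb6, at 909, 1271 and 1433 normalized counts in PKM2fl/fl and 577, 498 and 759 in PKM2-/- sham hearts (-0.97 (SE 0.30, adjusted p = 0.242)), and Itgb3, at 177, 178 and 178 and 272, 347 and 218 (0.62 (SE 0.19, adjusted p = 0.237)). Libraries of the 2 genotypes did not overlap for either gene (16.5% of all genes), and neither difference passed the correction.

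After MI 2 members were called, 1 in each direction, where 0.394% of all genes were higher and 0.573% lower in PKM2-/- hearts. Itga3 was higher in PKM2-/- hearts, at 728, 655 and 780.5 normalized counts against 510.1, 355 and 422 in PKM2fl/fl hearts, a difference of 0.76 (SE 0.15, adjusted p = 0.0319) on the log2 scale or 1.69-fold. Itgb6 was lower, at 120.0, 248 and 247 against 510.1, 720.1 and 319, 2.51-fold or -1.33 (SE 0.30, adjusted p = 0.0488). Libraries of the genotypes did not overlap for either gene (18.9% of all genes). Of all members 10 had an unadjusted p under 0.05 (17% of all genes), with Itgb3 (0.55, adjusted p = 0.15), Itga5 (0.39, 0.166) and Lama2 (-0.37, 0.171) next in order of p.

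The genotype calls after MI depended on single libraries. The call of Itgb6 was lost in 21 of 27 alternative analyses, with log2 differences of -1.63 to -0.96, and that of Itga3 in 7 of 27, with differences of 0.63 to 1.13. Leaving out PKM2fl/fl MI replicate 3, the heart with the lowest cardiomyocyte marker sum (129997) and the highest Itgam count, gave 8 called members beside 11.1% of all genes: Itgb6 (-1.63), Itgad (-0.89, mostly Cox6a2 reads) and Lamb2 (-0.61) lower in PKM2-/- hearts, and Itgam (1.04), Itga3 (0.76), Itgb3 (0.67), Itga5 (0.49) and Itgav (0.28) higher. Without PKM2fl/fl MI replicate 2, or without any one of the PKM2-/- MI hearts, 0 members were called (0.0827% of all genes without the first, and 0.073%, 0.234% and 0.0535% without PKM2-/- MI replicates 1, 2 and 3), and the call of Itgb6 was also lost without PKM2fl/fl MI replicate 1, without any baseline or PKM2fl/fl sham heart and without PKM2-/- sham replicate 1 or 3. Scaled by total count, 0 members were called, and 101 of the 121 genes called in the whole table were higher in PKM2-/- hearts, against 81 of 199. Several summed marker levels did not overlap between the genotypes after MI. Neutrophil markers were at 1329 to 2345 normalized counts in PKM2fl/fl and 3778 to 4906 in PKM2-/- hearts, platelet markers at 1106 to 1636 and 1945 to 3175, dendritic markers at 1248 to 1523 and 956 to 1160, T cell markers at 69.7 to 73.2 and 42.2 to 63.5, and atrial markers at 9080 to 10179 and 10194 to 11652. Their part in these differences was not tested.

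The MI effect itself was compared between genotypes by an interaction term. None of the 36 members passed, and no gene of the whole table did by limma or edgeR (0%), while DESeq2 called 60 genes and edgeR without a filter 538. By limma 52 genes were called under total count scaling and 486 without PKM2fl/fl MI replicate 3 (2.37%), 0 of them members in either case, and 3 without PKM2fl/fl MI replicate 2 and 6 without PKM2fl/fl sham replicate 3. At an unadjusted p under 0.05, 3 members were found beside 8.28% of all genes: Itga3, with a stronger rise in PKM2-/- hearts (0.53, SE 0.21, adjusted p = 0.54 by limma), Itga10 (-1.05, SE 0.45) and Itga6 (-0.43, SE 0.19). The calls that MI gave in one genotype and not in the other (Itga7, Itga9, Itga10 and Lama3) were thus not shown to differ between the genotypes. By edgeR and DESeq2 0 members passed as well.

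Sham surgery was compared with baseline in each genotype, with the caution that these sham libraries also serve as the controls of MI. In PKM2fl/fl hearts no member was called (0.19% of all genes), and 6 had an unadjusted p under 0.05 (8.81% of all genes). edgeR called 0, edgeR without a filter 4, and DESeq2 2 members, Itga6 and Itgb2, beside 349 genes of the whole table. These 2 were also called without PKM2fl/fl sham replicate 3 (1.37% of all genes). Without PKM2fl/fl MI replicate 3 Itgb2 was called (0.492% of all genes). The largest changes were those of Itgam, at 188 and 148 normalized counts at baseline and 424, 731 and 251 after sham (1.35 (SE 0.43, adjusted p = 0.266)), and Itgb2, at 149 and 139 and 304, 419.8 and 226 (1.08 (SE 0.29, adjusted p = 0.16)). Itga6 was at 2647 and 2365 at baseline and 1312, 1666 and 1949 after sham (-0.63 (SE 0.15, adjusted p = 0.115)). In each of the 3 the groups did not overlap (32.5% of all genes).

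In PKM2-/- hearts 3 members rose and 1 fell after sham, where 3.48% of all genes rose and 1.66% fell. Itgb2 went from 166 and 132 normalized counts to 469, 421 and 338 (1.45 (SE 0.29, adjusted p = 0.0107)) and Itgb3 from 90.9 and 136 to 272, 347 and 218 (1.30 (SE 0.21, adjusted p = 0.00317)). Itga5 went from 949 and 1048 to 1530.5, 1622 and 1392 (0.60 (SE 0.16, adjusted p = 0.0369)), and Itgb6 from 1565 and 1345 to 577, 498 and 759 (-1.27 (SE 0.33, adjusted p = 0.0385)). In all 4 the sham hearts lay beyond both baseline hearts, as for 34.5% of all genes. The summed macrophage and monocyte markers were 2672 to 3699 at baseline and 4976 to 5899 after sham in the same hearts, and 2770 to 3218 and 3633 to 5763 in PKM2fl/fl hearts. Itgb3 was called in all 27 alternative analyses and Itgb2 in 26, while Itga5 and Itgb6 were each lost in 10. Without PKM2-/- baseline replicate 1 or PKM2-/- sham replicate 1 or 2 only Itgb2 and Itgb3 were called, and without PKM2-/- baseline replicate 2 only Itgb3. Without PKM2fl/fl MI replicate 3, 5 members were called, with Itgam as the fifth (6.93% of all genes). Whether the change from baseline to sham differed between the genotypes was tested as well, and no member passed (0% of all genes). The smallest p among members was that of Itga5 (0.74 (SE 0.22, adjusted p = 0.526)).

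Across all 3 conditions the groups of the PKM2-/- hearts did not overlap for Itgb6 and Itgb3: Itgb6 had 1565 and 1345 normalized counts at baseline, 577, 498 and 759 after sham and 120.0, 248 and 247 after MI, and Itgb3 had 90.9 and 136, 272, 347 and 218 and 1089.5, 1143 and 1284. In PKM2fl/fl hearts Itgb6 had 1593 and 1430.4 at baseline, 909, 1271 and 1433 after sham and 510.1, 720.1 and 319 after MI. There the baseline and sham values overlapped, and the MI values lay below both. The Itgb3 groups of PKM2fl/fl hearts did not overlap either, at 109 and 107 at baseline, 177, 178 and 178 after sham and 861, 623 and 948 after MI. This order was not particular to Itgb6 and Itgb3. In PKM2-/- hearts a rising order also held for Itgb2, Itgb5, Itgb8, Itgam, Itgal, Itgav, Itga5, Lamc1 and Itgae as counted. A falling order held there for Lama2 and Itga8. In PKM2fl/fl hearts a rising order also held for Itgb2, Itgam, Itgav, Itga4 and Itgae as counted, and a falling order for Lamb2. The share of all genes with such an order was not counted.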

How the data were processed

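Total RNA of left ventricles was depleted of ribosomal RNA, made into libraries with a kit that does not mark strand, and sequenced from both ends. The authors used PRINSEQ for trimming, HISAT2 for alignment (mouse build mm10) and featureCounts for counts per gene; counting annotation and strand setting are not given in the sources used here. The authors deposited a normalized signal for each gene and library, the count divided by DESeq2's size factor. Whole reads were recovered from these values (100% of values within 0.05 of a whole number). The same table holds the authors' log2 fold change, its standard error, a Wald score and p-values for the baseline groups, which were not used. No per-sample column was left without a sample (0).

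The sample labels gave the groups, and libraries were taken as separate mice, as the series' design says. The log2(normalized count + 1) values of all 16 libraries in 6 groups were compared with limma 3.58.1 (R 4.3.3, trend) for genes with a mean of at least 10, with Benjamini-Hochberg adjustment over 20576 genes and calls at an adjusted p under 0.05. edgeR 4.0.16 and DESeq2 1.42.0 on recovered reads, other scalings, pseudocounts, filters, a block on the replicate number, each library left out and, chosen after seeing the data, 2 further analyses (reads of opposite-strand genes removed, CT010467.1 as a covariate) were alternatives. On simulated data limma recovered 81.1% of genes changed 2-fold and 97.3% of genes changed 4-fold, for MI against sham in PKM2fl/fl hearts over 20157 genes. These were 90 and 110 genes, none of low level, and 12 other genes were called falsely. In the real data 10299 genes were called in this comparison. Recovery under so broad a change, for low members or between genotypes was not measured. Of the members, 1 is included in the counts but its own values are not reported here. The others were named, with values in every library for those called between genotypes and for the 10 with the largest MI change, and of each partner list the 4 genes with the smallest p for MI against sham in PKM2fl/fl hearts. The members, lists and tests were chosen with earlier results of these data known.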

Additional observations from a re-analysis of the deposited data

Results flagged for a closer look

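Groups of 2 or 3 libraries are too small for a test of single outlying samples, so results were taken up here where every library of one genotype moved one way under a contrast and every library of another group moved the opposite way. This held for 3 members. The share of all genes for which it held was not counted, so 3 cannot be called many or few. Groups that do not overlap in a single contrast were common. For sham against baseline they made up 32.5% of all genes in PKM2fl/fl and 34.5% in PKM2-/- hearts. The tests of the differences were added after the values were seen.

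Itga5 was lower in both PKM2-/- hearts than in both PKM2fl/fl hearts at baseline (log2 difference -0.31), and higher in all 3 PKM2-/- hearts after sham (0.43) and after MI (0.39). From baseline to sham it changed by -0.14 in PKM2fl/fl and by 0.60 in PKM2-/- hearts, with no overlap in either. The difference between the genotype effects was 0.74 for sham minus baseline (SE 0.22, adjusted p = 0.526 by limma) and 0.70 for MI minus baseline (SE 0.22, adjusted p = 0.345), so neither passed the correction.

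Itgal was lower in the PKM2-/- hearts at baseline (-0.24) and higher after MI (0.58), with a difference of 0.82 between these effects (SE 0.42, adjusted p = 0.576 by limma). Itga9 changed from baseline to sham by -0.32 in PKM2fl/fl and by 0.13 in PKM2-/- hearts, a difference of 0.45 (SE 0.17, adjusted p = 0.67 by limma). Neither difference passed the correction.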

How the results depend on the processing

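The 64 member values called in any comparison were recomputed under 27 alternatives, 1728 values in all. Of these 1641 kept their call, 87 lost it, and 0 changed direction. Scaling by total count lost the most, 18, and put the median log2 fold change of all genes at -0.17 (MI against sham, PKM2fl/fl), 0.52 (MI against sham, PKM2-/-) and 0.36 (genotype after MI). For MI against sham, members that fell in PKM2fl/fl hearts numbered 4 with CT010467.1 as a covariate and 3 with a 2-fold change asked for, against 7. Members that rose in PKM2-/- hearts numbered 13 with a 2-fold change asked for, against 20, and those that fell there 4 under total count scaling, against 10. For genotype after sham, 2 members were called by edgeR without a filter and 1 under total count scaling, against 0. For genotype after MI (2 members), 5 were called by edgeR without a filter, 1 by edgeR, with a pseudocount of 0.1, with no filter, with the covariate and with a 2-fold change asked for, and 0 under total count scaling and with only the compared groups. The whole-table count there was 199, and 138 by edgeR, 1710 by edgeR without a filter, 1029 by DESeq2, 121 under total count scaling and 6 with only the compared groups. The whole-table counts for DESeq2, edgeR without a filter and total count scaling were 11, 214 and 44 for genotype at baseline (against 2), 266, 716 and 113 for genotype after sham (against 2), and 349, 930 and 94 for sham against baseline in PKM2fl/fl hearts (against 39). In PKM2-/- hearts the last comparison gave 1914 by edgeR without a filter and 588 under total count scaling, against 1058, and for MI against sham in PKM2fl/fl hearts total count scaling gave 6027, against 10299. For sham against baseline, 4 members by edgeR without a filter and 2 by DESeq2 were called in PKM2fl/fl hearts, against 0, and 2 with no filter in PKM2-/- hearts, against 4. The cause of these changes was not tested.

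Leaving out each library in turn gave 19 to 21 members that rose and 7 to 8 that fell after MI in PKM2fl/fl hearts, and 20 to 21 and 9 to 10 in PKM2-/- hearts. Between genotypes it gave 0 to 0 at baseline and after sham and 0 to 8 after MI, with 0 to 0 for the interaction. For sham against baseline it gave 0 to 2 in PKM2fl/fl and 1 to 5 in PKM2-/- hearts.

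No pairing of libraries by replicate number was seen. Same-numbered libraries of different groups had correlations of deviations from -0.20 to 0.13 (median -0.027, 36 pairs). Libraries with different numbers had -0.20 to 0.20 (median 0.013, 70 pairs). Deviations from the mean of 2 or 3 libraries depend on each other, so this check is weak and cannot exclude a pairing. With the replicate block, 0 members differed between genotypes after MI and 2 between sham and baseline in PKM2-/- hearts, and 75 genes of the whole table differed between genotypes after MI. Baseline groups of 2 libraries limit every comparison with baseline.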
